A study of Homo sapiens with 16 samples.

Results

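The transcriptional response of LP-1-cIAP2-eGFP cells to 24 h of bortezomib was described on 4 of the 16 arrays of the series, 2 of cells treated with 10 nM bortezomib and 2 of untreated cells kept for the same 24 h. LP-1 cells were grown from a human multiple myeloma, a cancer of plasma cells. All 4 samples carry a lentiviral vector that expresses cIAP2, an inhibitor of apoptosis protein encoded by BIRC3, together with eGFP, and the transduced cells had been sorted on eGFP, so the line is a sorted population of transduced cells. The other arrays hold the same line at 6 h and the control line LP-1-eGFP, which carries the vector with eGFP alone, each untreated or with 10 nM bortezomib. Each condition had 2 biological replicates, and p-values rest on the spread between these arrays. The defining markers of plasma cells were present, with 10 of 10 well above background on all 4 arrays, against 1 of 5 B cell markers, 1 of 7 T and NK cell markers (CD2), 0 of the 4 monocyte and granulocyte markers that had a probe, 1 of 3 erythroid markers and 1 of 6 stromal, endothelial and epithelial markers (KRT8). In cells taken in bulk, fewer cells of a type and less RNA per cell cannot be told apart.

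Bortezomib blocks the catalytic core of the proteasome, the protease that degrades ubiquitin-tagged proteins. Cells in which misfolded proteins pile up induce chaperones through heat shock factors, proteasome subunits through NFE2L1 and, when translation is slowed by stress kinases, the ATF4 and CHOP genes. Plasma cells and myeloma cells make large amounts of immunoglobulin, and proteasome inhibitors are used to treat the disease.

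The array of bortezomib replicate 1 was dim. Its log2 median signal was 3.18, against 6.04 on bortezomib replicate 2, 6.14 on untreated replicate 1 and 6.28 on untreated replicate 2, and 35.45%, 55.04%, 69.86% and 66.25% of the gene spots on these arrays, in the same order, gave a signal that the scanner software set well above background. After quantile normalization the difference between the bortezomib replicates had an SD of 1.48 across probes, whereas that between replicates of the other 7 conditions was 0.495 to 0.773. The test shares the spread between replicates over all 8 conditions, so it takes this condition to vary less than it did. Its p-values and standard errors (SE) for this condition are therefore too small. Counts are therefore given beside those of a fit with array weights, in which the arrays of a condition whose replicates differ more count for less (weight 0.126 for both bortezomib arrays and 1.389 for both untreated arrays). The SEs printed below are those of the fit without weights. For ANXA1 the SE was 0.304 there and 0.816 with array weights, and for BIRC3 it was 0.150 and 0.301. Each bortezomib array was also set against the untreated array of the same number, although the numbers do not pair the arrays. In the plot of these responses many genes lay along the line of equal responses, and a band of genes rose on replicate 1 alone. Of the 10058 genes well above background on all 4 arrays, 597 were over 4-fold higher with bortezomib in replicate 1, and 297 of these had changed less than 1.5-fold in replicate 2. Likewise 20 of the 359 genes over 4-fold lower in replicate 1, and 7 of the 263 over 4-fold higher in replicate 2, had changed less than 1.5-fold in the other replicate. The T cell gene CD2 was among the markers with such values, with a log2 signal of 6.24 and 6.62 in untreated cells and of 11.49 and 6.35 with bortezomib. The high value was that of the dim array. The summed signal of the T and NK cell markers was 8.90 and 9.10 untreated and 11.59 and 8.51 with bortezomib, where the 11.59 of the dim array was nearly all CD2. On that array CD3D, CD3E, CD8A and GNLY, at 5.20, 3.21, 5.12 and 3.20, were below both untreated arrays. CD3G and NKG7, at 5.75 and 5.87, were above both untreated arrays there, as CD2 was. The summed signal of the plasma cell markers was 18.83 and 18.58 untreated and 17.51 and 17.55 with bortezomib, while the T cell genes CD3D, CD3E and CD3G were well above background on 2 of 4 arrays each. The part of these markers in the results was not tested.

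**Figure D1:**
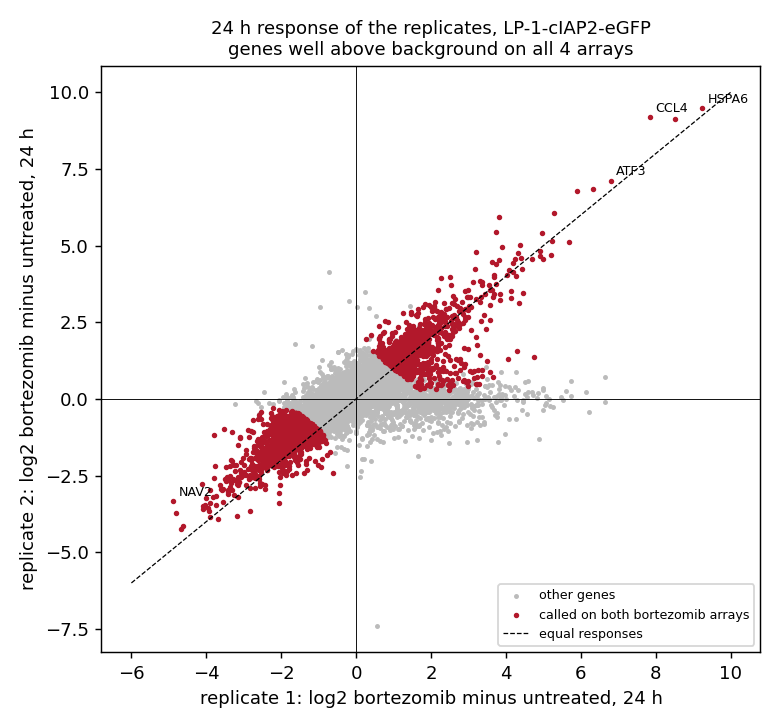
Response of the replicates (log2 signal with bortezomib minus untreated at 24 h, replicate 1 on the x axis and replicate 2 on the y axis) for the 10058 genes well above background on all 4 arrays. Red points are genes called on both bortezomib arrays, grey points are the other genes, and the dashed line marks equal responses; 297 of the 597 genes over 4-fold higher in replicate 1 lie near 0 in replicate 2.

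A probe was called where limma gave an adjusted p under 0.05 and a change of more than 2-fold. By this rule 6263 of 33730 probes were called, 2164 higher and 4099 lower with bortezomib, so that 34.6% of the calls were higher. With array weights 2818 were called, 888 higher and 1930 lower, and 2817 of them were also called without weights. The weights were equal within each condition, so fold changes and their directions stayed as they were. They therefore do not lessen the part of the dim array in a fold change. The median log2 fold change over all probes tested was -0.16. When each array was scaled to its 75th percentile this median was 0.28 and 48.3% of the calls were higher, and without the dim array 5159 probes were called and 45.5% were higher. Fitted on the 4 arrays alone, limma called 0 probes at the adjusted threshold and 6220 had an unadjusted p under 0.05. Both bortezomib arrays and untreated replicate 1 lay on the same slide, and within that slide, without untreated replicate 2, 4555 probes were called. Of the calls, 5750 were present on both bortezomib arrays, in that both lay beyond both untreated arrays and the probe was well above background on both arrays of the brighter side. Of the 4099 probes called lower, 2307 were not well above background on the dim array and 907 on neither bortezomib array.

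Gene lists were counted on the probe of each gene with the highest mean signal. Among the 16398 genes tested, 7.65% were called higher and 13.9% lower, 6.54% and 13.7% were so on both bortezomib arrays, and 3.85% and 7.92% were called with array weights. Without the dim array the shares were 8.71% and 9.79%. After scaling to the 75th percentile 1469 genes were called higher and 2071 lower, against 1255 and 2281 with quantile normalization. The counts of each list below are to be read against the shares or counts of the same fit. Unless stated otherwise, values are normalized log2 signals or differences between them, and each named gene called here was also called with array weights. Most named genes were chosen among those called on both bortezomib arrays. For these, groups that do not overlap follow from the choice and add no support.

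**Figure D2:**
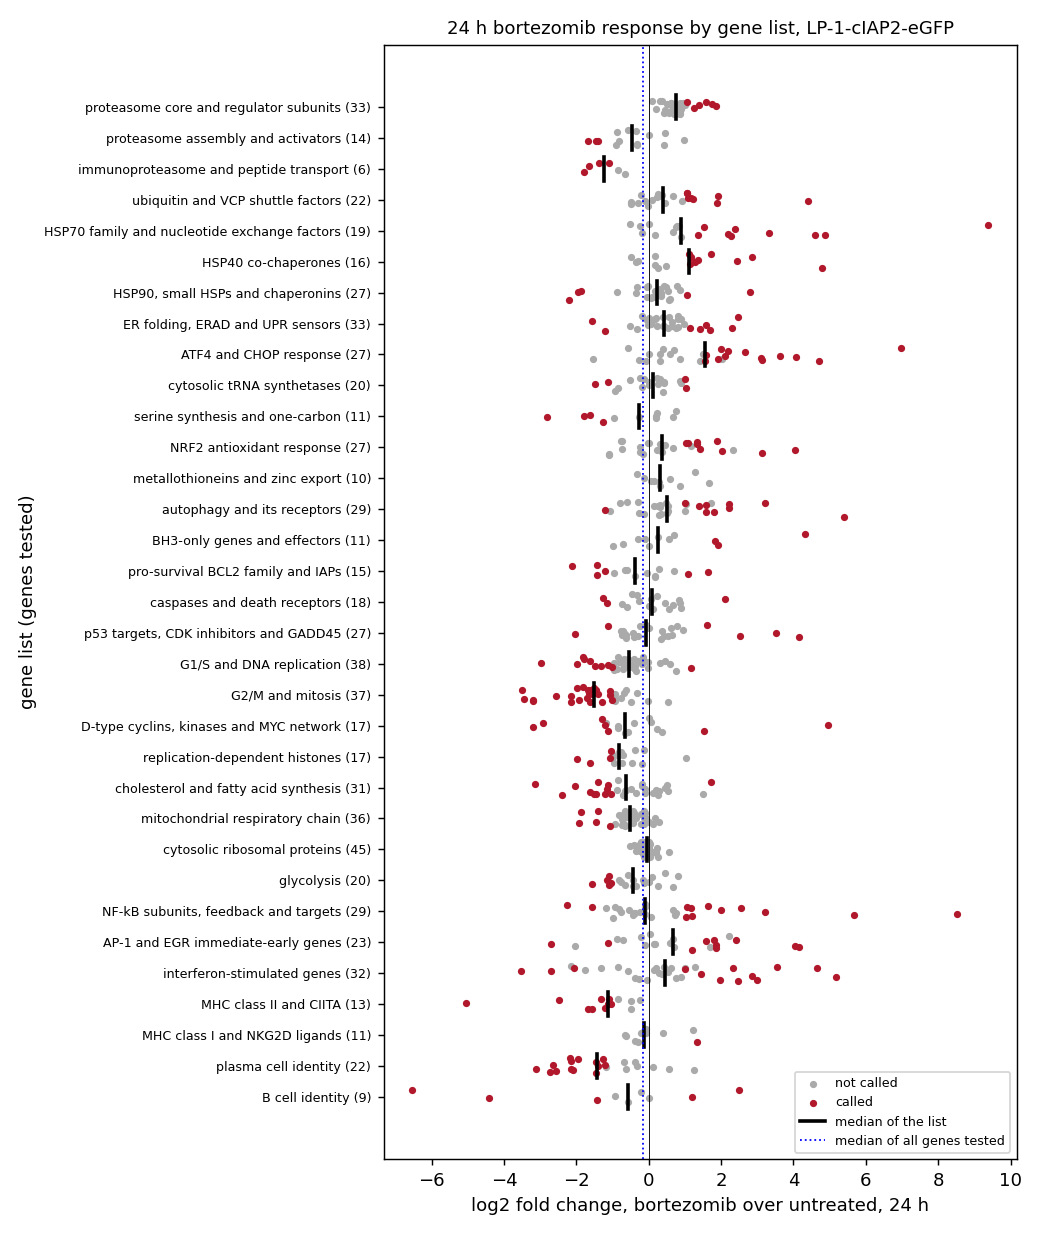
Log2 fold change with bortezomib at 24 h in LP-1-cIAP2-eGFP (x axis) of each gene tested in the gene lists (y axis, with the number of genes tested). Red points are called genes, grey points are not called, black bars are the medians of the lists and the dotted line is the median of all genes; the ATF4 and CHOP list has a median of 1.56 and the G2/M list one of -1.5.

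Stress chaperones were among the genes that rose most. Of 19 genes of the HSP70 family and its nucleotide exchange factors, 9 rose and 0 fell, with a median of 0.90, and 7 rose with array weights. Without the dim array 11 rose and 0 fell, and the median was 1.36. Of 16 HSP40 co-chaperones, which hand substrates to HSP70, 9 rose and 0 fell, with a median of 1.12, and 5 rose with array weights. HSPA6, a strictly stress-inducible HSP70, had a signal of 7.60 and 7.64 in untreated cells and of 16.85 and 17.13 with bortezomib. The groups did not overlap, and its log2 fold change of 9.37 ± 0.314 (SE; limma, adjusted p = 4.16e-07) was the largest rise of any gene well above background on all 4 arrays, with 7.92 on its other probe. HSPA1B, the main inducible HSP70, went from 13.24 and 13.45 to 18.16 and 18.27. Its rise of 4.87 is uncertain in origin, because HSPA1A is nearly identical in sequence and the array probe may bind both. DNAJB1, the HSP40 that partners HSP70 in disaggregation, went from 11.22 and 11.56 to 16.14 and 16.22, a log2 fold change of 4.79 ± 0.364 (SE). BAG3, which links HSP70 to selective autophagy, went from 7.12 and 6.56 to 10.87 and 12.01, and all 4 of these genes were higher on both bortezomib arrays than on either untreated array.

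Other rises in these families were DNAJB4 at 2.86, DNAJB2 at 2.43, the HSP70 relative HSPA12A at 2.37 and BAG4, which restrains death receptor signalling, at 2.20. HSPA9, the HSP70 of mitochondria, rose by 1.37 on the log2 scale. The rises of HSPH1, HSPA8, DNAJB5 and DNAJA1 were not called with array weights. Of 27 HSP90, small heat shock protein and chaperonin genes 2 were called higher and 3 lower, with a median of 0.22, and 1 was higher and 2 lower with array weights. SERPINH1, the collagen chaperone HSP47, went from 12.03 and 12.39 to 14.96 and 15.06, a log2 fold change of 2.79 ± 0.198 (SE). HSPB1, the most studied small heat shock protein, had a log2 fold change of 0.60 and was not called. FKBP5, an HSP90 co-chaperone, fell by 2.20 and TRAP1, the mitochondrial HSP90, fell by 1.96, while the chaperonin subunit CCT5 had a log2 fold change of -1.88 that was lost with array weights, after scaling to the 75th percentile, under normexp correction and without either untreated array, and was -0.95 and not called without the dim array.

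The sequence before the start of 4 of the genes that rose is shown to set the regulatory letters beside the rises. They are RefSeq sequences of GRCh38.p14, 250 bases each and 5' to 3' on the strand of the gene, and capitals mark a match to the heat shock element core GAANNTTC in HSPA6, HSPA1B and SERPINH1 and to the ATF4 element TGATGNAA in ATF3.
HSPA6 at chr1:161524290-161524539, plus strand: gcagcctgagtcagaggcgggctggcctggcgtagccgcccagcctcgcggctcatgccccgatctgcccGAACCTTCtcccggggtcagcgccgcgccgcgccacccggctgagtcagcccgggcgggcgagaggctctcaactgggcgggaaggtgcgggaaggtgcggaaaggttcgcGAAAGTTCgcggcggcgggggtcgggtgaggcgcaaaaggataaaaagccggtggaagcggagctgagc
HSPA1B at chr6:31827488-31827737, plus strand: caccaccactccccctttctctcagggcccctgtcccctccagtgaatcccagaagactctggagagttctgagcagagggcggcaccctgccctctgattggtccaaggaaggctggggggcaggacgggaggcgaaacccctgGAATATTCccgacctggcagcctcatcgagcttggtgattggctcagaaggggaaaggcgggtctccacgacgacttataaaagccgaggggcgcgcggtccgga
SERPINH1 at chr11:75562003-75562252, plus strand: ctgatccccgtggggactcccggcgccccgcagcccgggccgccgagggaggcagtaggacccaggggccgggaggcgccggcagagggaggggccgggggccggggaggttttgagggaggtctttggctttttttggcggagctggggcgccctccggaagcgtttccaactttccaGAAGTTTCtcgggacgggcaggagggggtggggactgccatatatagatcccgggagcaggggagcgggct
ATF3 at chr1:212565157-212565406, plus strand: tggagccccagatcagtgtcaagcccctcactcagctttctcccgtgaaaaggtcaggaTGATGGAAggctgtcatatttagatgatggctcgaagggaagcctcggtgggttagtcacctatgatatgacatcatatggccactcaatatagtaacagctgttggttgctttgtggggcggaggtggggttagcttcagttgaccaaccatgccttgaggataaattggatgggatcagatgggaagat
HSPA6 held 2 matches and HSPA1B, SERPINH1 and ATF3 held 1 each. The genes shown all hold a match and do not stand for the others that rose. DNAJB1, BAG3, DNAJB4 and DNAJB2 had 0 matches to GAANNTTC. DDIT3, TRIB3, CTH and PPP1R15A had 0 matches to TGATGNAA. For a listed gene only its first promoter was searched, whereas the share of all promoters covers every entry. Both strands were searched, from 250 bases before to 50 after the start. GAANNTTC was found in 6.77% of all 35116 promoters, in 13 of the 57 listed chaperone genes that have a promoter sequence in the table and in 7 of the 19 of these that were called higher. TGATGNAA was found in 3.62% of all promoters, in 6 of the 23 genes of the ATF4 and CHOP response that have a sequence and in 2 of the 10 of these called higher. A match describes the letters and was not tested as a binding site.

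Subunits of the proteasome core and of its regulatory particle were shifted up as a list, with 6 of 33 called higher, 0 lower and a median of 0.76, and the log2 fold changes of the 33 genes ran from 0.09 to 1.86. The same number, 6, was called with array weights, and 10 were called without the dim array. PSMD12, a lid subunit of the regulatory particle, went from 12.34 and 12.27 to 14.13 and 14.21. Its rise of 1.86 ± 0.131 (SE; limma, adjusted p = 1.47e-05) was the largest of the list. PSMC4, an ATPase of the base, went from 13.52 and 13.31 to 15.07 and 15.29. PSMC6, a further ATPase, rose by 1.59 and PSMD14, the deubiquitinase of the lid, by 1.40. PSMB5, the subunit whose active site bortezomib occupies, went from 14.33 and 14.63 to 15.24 and 15.48, and its log2 fold change of 0.88 stayed under the 2-fold limit, as did that of 0.86 of the ubiquitin receptor PSMD4. The motif TGACNNNGC, part of the antioxidant response element, was found in 13.3% of all promoters, in 6 of the 28 subunit promoters in the table and in 3 of the 6 of these called higher, whereas the NRF2 list had it in 6 of its 22 promoters in the table and in 1 of the 6 of these whose genes were called higher. That of PSMD12 is shown as an example, with the match in capitals.
PSMD12 at chr17:67366578-67366827, minus strand: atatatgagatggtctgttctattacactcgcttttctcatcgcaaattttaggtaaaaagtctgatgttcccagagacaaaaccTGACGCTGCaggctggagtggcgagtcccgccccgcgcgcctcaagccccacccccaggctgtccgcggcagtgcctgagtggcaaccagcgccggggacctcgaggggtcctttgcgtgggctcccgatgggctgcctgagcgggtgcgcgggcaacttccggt

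Of 14 assembly factors and alternative activators 0 were called higher and 3 lower, also with array weights, with a median of -0.46. The activator subunits PSME2 and PSME3 had log2 fold changes of -1.40 and -1.46 and the assembly chaperone PSMG4 of -1.68, or -4.10 on its other probe, whereas POMP, the maturation factor of the core, had a log2 fold change of 0.98 and was not called. The interferon-inducible immunoproteasome and the peptide transport genes went down, with 4 of 6 called lower, also with array weights, and a median of -1.23. PSMB8 went from 12.82 and 12.86 to 10.83 and 11.54. PSMB9 went from 13.93 and 13.99 to 12.54 and 12.63. TAPBP, which loads peptides onto MHC class I, went from 14.89 and 14.73 to 12.82 and 13.21, and in these 3 genes both bortezomib arrays were below both untreated arrays. TAP1, the peptide transporter, fell by 1.09, and this was lost without the dim array.

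Of 22 ubiquitin genes and shuttle factors of the VCP segregase, 8 rose and 0 fell, and 5 rose with array weights. ZFAND2A, an arsenite-inducible factor that acts with the proteasome, went from 10.58 and 10.67 to 14.83 and 15.22, a log2 fold change of 4.40 ± 0.148 (SE). ZFAND5, which stimulates the proteasome, went from 13.45 and 13.10 to 15.22 and 15.16, with its 3 probes between 1.92 and 2.80. NFE2L1, the transcription factor that drives proteasome subunit genes, went from 13.10 and 12.87 to 14.96 and 14.78, and in all 3 genes the groups were apart. VCP itself rose by 1.22, which was lost under normexp background correction.

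In the endoplasmic reticulum, 6 of 33 folding, degradation and sensor genes rose and 2 fell, and 6 rose and 1 fell with array weights. HSPA5, the main ER chaperone BiP, went from 10.50 and 10.48 to 12.71 and 12.85, a log2 fold change of 2.30 ± 0.131 (SE). DNAJB9, an ER co-chaperone and IRE1 target, went from 12.69 and 12.23 to 14.94 and 14.89. HERPUD1, a scaffold of ER-associated degradation, rose by 1.57 and the COPII coat gene SEC24D by 1.68. XBP1, the transcription factor of the IRE1 branch, went the other way, from 17.45 and 17.33 to 16.25 and 16.14. EDEM3, which trims glycans for degradation, had a log2 fold change of -1.58 that was not called with array weights, and 2 of its 3 probes were called.

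The ATF4 and CHOP response had the highest median of the lists, at 1.56. Of its 27 genes 13 rose and 0 fell, 7 with array weights. ATF3, a stress-induced repressor, went from 9.43 and 9.18 to 16.22 and 16.29, a log2 fold change of 6.96 ± 0.542 (SE; limma, adjusted p = 2.55e-05). It has 4 probes, of which 3 were called. DDIT3, which encodes CHOP, went from 9.41 and 9.43 to 13.77 and 14.46. PPP1R15A, the phosphatase subunit that restores translation, went from 8.26 and 7.94 to 12 and 12.34. For these 3 genes both bortezomib arrays lay above both untreated arrays. CTH, which makes cysteine, rose by 3.62 and TRIB3, a pseudokinase induced by CHOP, by 2.18. The cystine carrier SLC7A11 had 8.61 and 7.31 untreated and 11.14 and 11.02 with bortezomib, and its call was lost with array weights and without untreated replicate 2, where its log2 fold change was 2.47 in place of 3.12. ASNS, asparagine synthetase, had 15.08 and 14.89 against 15.18 and 16.18 and was not called. Of 20 cytosolic tRNA synthetases, 2 rose and 2 fell, 1 and 2 with array weights, but 0 rose and 4 fell after scaling to the 75th percentile. Of 11 genes of serine synthesis and folate metabolism 0 rose and 4 fell, and 3 fell with array weights. SHMT1, a cytosolic serine hydroxymethyltransferase, had a log2 fold change of -2.80, or -2.14 on its other probe, and thymidylate synthase, TYMS, of -1.62.

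Of 27 genes of the NRF2 antioxidant response, 9 rose and 0 fell, and 5 rose with array weights. HMOX1, which breaks down heme, went from 12.90 and 12.62 to 14.17 and 14.21, a log2 fold change of 1.43 ± 0.163 (SE). The small MAF gene MAFF, a partner of NRF2 and NFE2L1, went from 6.84 and 6.95 to 10.89 and 10.99, and BACH1, a repressor of the same elements, rose by 1.88. GCLM, of glutathione synthesis, had a log2 fold change of 1.16 and an adjusted p of 0.0549 in limma and was not called. Metallothioneins and zinc exporters had 0 of 10 genes called in either direction. Of 29 autophagy genes, 9 rose and 1 fell, with 6 higher and 0 lower under array weights and 9 and 0 without the dim array. GABARAPL1, an ATG8 family member, went from 9.18 and 9.36 to 14.86 and 14.47, a log2 fold change of 5.39 ± 0.175 (SE). SQSTM1, the receptor p62 for ubiquitinated cargo, went from 13.61 and 13.04 to 16.51 and 16.56. MAP1LC3B, which encodes LC3B, rose by 2.22 and WIPI1, which acts at the forming autophagosome, by 2.21.

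**Figure D3:**
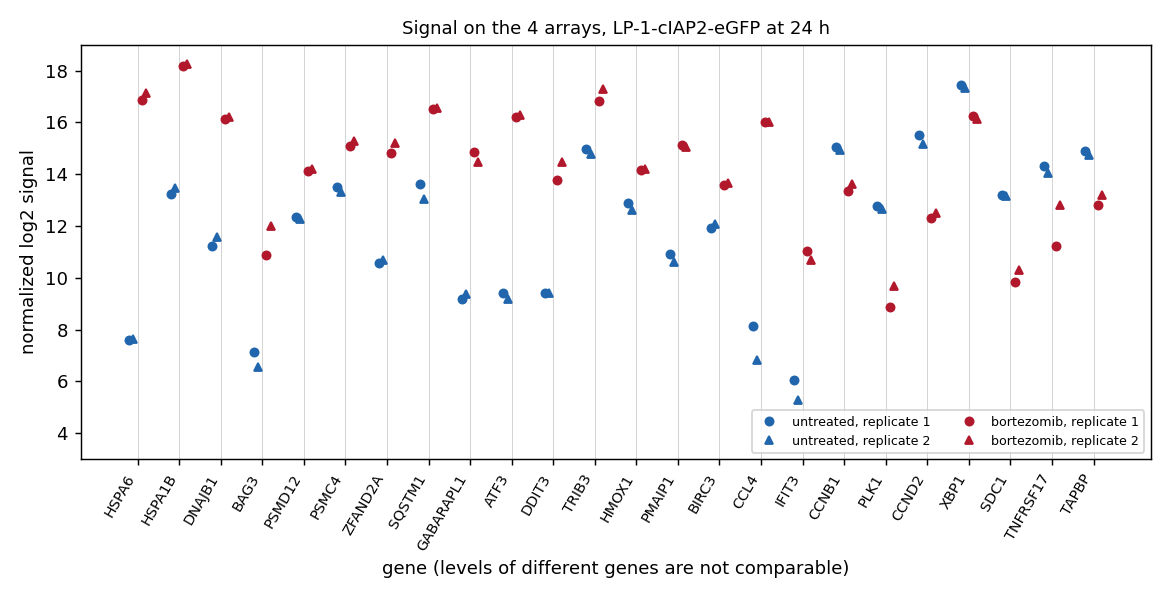
Normalized log2 signal (y axis) of 24 named genes (x axis) on the 4 arrays, untreated in blue and bortezomib in red, replicate 1 as circles and replicate 2 as triangles. For each gene shown both bortezomib arrays lie on the same side of both untreated arrays, as for HSPA6 at 7.60 and 7.64 against 16.85 and 17.13. The rule by which most genes were named required this.

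Among the genes of apoptosis, 3 of 11 BH3-only genes and effectors rose and 0 fell, and 2 rose with array weights. PMAIP1, which encodes NOXA, an antagonist of MCL1, went from 10.93 and 10.62 to 15.11 and 15.05, a log2 fold change of 4.31 ± 0.530 (SE). BBC3, which encodes PUMA, rose by 1.83, and HRK had a log2 fold change of 1.90 that was lost with array weights. Of 15 pro-survival BCL2 family genes and inhibitors of apoptosis, 2 rose and 4 fell, and 1 rose and 2 fell with array weights. BIRC3 itself went from 11.92 and 12.06 to 13.58 and 13.67, a log2 fold change of 1.64 ± 0.150 (SE; limma, adjusted p = 6.01e-05). According to the study's methods this probe detects the endogenous transcript and not that of the vector, which was not checked here. BIRC5, which encodes survivin and is expressed in mitosis, went from 15.92 and 15.86 to 13.76 and 13.78. BCL2L1, which encodes BCL-XL, had a log2 fold change of -1.44, whereas MCL1 had a log2 fold change of 0.17 and was not called. TNFRSF10B, the TRAIL receptor DR5, was the only one of 18 caspases and death receptor genes called higher, also with array weights, while 2 fell, 1 with array weights, but without the dim array 2 were higher and 1 lower, and after scaling to the 75th percentile 2 were higher and 2 lower. It went from 10.01 and 9.78 to 12.07 and 11.92, while cytochrome c, CYCS, fell by 1.27, with 2 of 3 probes called.

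Genes of cell division went down. Of 37 G2/M and mitosis genes, 25 fell and 0 rose, with a median of -1.5, and 23 fell with array weights and 22 without the dim array. PLK1, a mitotic kinase, went from 12.78 and 12.64 to 8.88 and 9.67, a log2 fold change of -3.44 ± 0.241 (SE), or of -2.14 on its other probe. TOP2A, the topoisomerase of dividing cells, went from 12.93 and 12.58 to 9.14 and 10.00. CCNB1, the cyclin of mitotic entry, went from 15.06 and 14.94 to 13.36 and 13.63, and in these 3 genes both bortezomib arrays were below both untreated arrays. CCNF, a cyclin of a ubiquitin ligase, had a log2 fold change of -3.49 and CENPA, the centromeric histone, of -3.21, and neither was well above background on both bortezomib arrays. Of 38 G1/S and DNA replication genes, 9 fell and 1 rose, and 8 fell and 0 rose with array weights. E2F2 went from 16.64 on both untreated arrays to 13.48 and 13.85. The helicase subunit MCM2 had a log2 fold change of -1.02, and its call was lost without the dim array, without untreated replicate 1 and under normexp correction. Replication-dependent histones had 4 of 17 genes lower and a median of -0.83, and 1 of them, H2BC12, was called with array weights.

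Of 17 D-type cyclins, kinases and genes of the MYC network, 2 rose and 5 fell, 2 and 4 with array weights, with a median of -0.67. Without the dim array 2 rose and 6 fell, and the median was -0.41. CCND2, a D-type cyclin of myeloma, went from 15.51 and 15.17 to 12.31 and 12.52, a log2 fold change of -2.93 ± 0.188 (SE). FGFR3, a receptor kinase activated by translocation in a subset of myelomas, went from 16.67 and 16.80 to 13.41 and 13.66. Its log2 fold change was -3.20, and -4.56 on its other probe. MYC had 15.38 and 14.89 untreated against 13.70 and 13.96, with a log2 fold change of -1.30 whose adjusted p with array weights was 0.0748. The MYC antagonist MXD1 rose by 1.54, and by 2.85 on its other probe, a call that was lost with the authors' normalized values. GADD45A, a stress sensor, went from 10.86 and 10.62 to 15.05 and 14.75, and GADD45G rose by 3.53 on 1 of its 2 probes, the other being at 1.17 and not called. CDKN1A, which encodes p21, had 6.28 and 5.83 against 5.74 and 7.59, so that the groups overlapped, and it was not called, although it was without the dim array. Of the 27 p53 targets, CDK inhibitors and GADD45 genes 4 rose and 2 fell, 3 and 1 with array weights and 5 and 1 without the dim array, and the median was -0.07, or 0.23 without that array and 0.16 after scaling to the 75th percentile. BTG2, an antiproliferative p53 target, fell by 2.05.

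Of 31 genes of cholesterol and fatty acid synthesis, 11 fell and 1 rose, and 9 fell with array weights. TM7SF2, a sterol reductase, went from 11.78 and 11.60 to 8.91 and 9.65, and PMVK, phosphomevalonate kinase, fell by 2.03. The fatty acid elongase ELOVL6 had a log2 fold change of -3.13, or -2.05 without the dim array, and was well above background on 1 of 2 bortezomib arrays. HMGCS1, at the entry of the pathway, had a log2 fold change of 0.12 and was not called, and the sterol carrier STARD4 rose by 1.73. Of 36 respiratory chain genes 5 fell, 4 of them with array weights, among them NDUFV2 of complex I, at -1.92, and ATP5MC1 of the ATP synthase, at -1.88. Of 20 glycolysis genes 5 fell, and 5 with array weights, but without the dim array 3 were lower and 1 higher. Among the 5 were PDK1, which restrains pyruvate oxidation, at -1.58 and LDHA, lactate dehydrogenase, at -1.09, the latter lost without the dim array and under normexp correction. Cytosolic ribosomal protein genes had 0 of 45 called in either direction, a median of -0.04 and a range from -0.51 to 0.57, although that median was 0.33 after scaling to the 75th percentile.

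Of 29 NF-κB subunits, feedback genes and targets, 10 rose and 2 fell, and 6 rose and 2 fell with array weights. The median of the list was -0.09 with quantile normalization and 0.46 after scaling to the 75th percentile, and 0.42 without the dim array, so it had no settled sign. CCL4, a chemokine that draws monocytes and T cells, went from 8.15 and 6.81 to 16 on both bortezomib arrays, a log2 fold change of 8.52 ± 0.471 (SE), or of 7.84 without untreated replicate 2 and 9.19 without untreated replicate 1. CCL3 went from 12.30 and 11.51 to 17.58 and 17.59 and CCL3L3 from 9.16 and 8.39 to 15.05 and 15.18, but these genes have near-identical copies and their probes may not tell them apart. The inhibitor NFKBIA went from 12.13 and 11.98 to 13.25 and 13.19, a log2 fold change of 1.16 with an adjusted p of 0.107 under array weights, where it was not called, as after scaling to the 75th percentile and under normexp correction. RELB, a subunit of the non-canonical branch, rose by 1.07. Of 23 AP-1 and EGR immediate-early genes, 8 rose and 2 fell, 3 and 1 with array weights and 8 and 1 without the dim array. JUN went from 10.23 and 10.49 to 14.31 and 14.71, and KLF2, a regulator of B cell quiescence and homing, went from 14.37 and 14.85 to 11.93 and 11.90.

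Of 32 interferon-stimulated genes 10 were called higher, 7 with array weights. Lower were 3 of the 32, 2 with array weights and 4 without the dim array, beside 13.9%, 7.92% and 9.79% of all genes. IFIT3 went from 5.68 ± 0.532 to 10.86 ± 0.225 (mean and SD, n = 2), a log2 fold change of 5.18 ± 0.336 (SE). IFIT1, of the same family of RNA-binding proteins, rose by 3.54. IFI44 was not well above background in untreated cells and was at least 17.6-fold higher, a bound that holds for the quantile-normalized values alone, since its log2 fold change was 2.43 with normexp. The antiviral membrane protein IFITM1 fell by 3.52, or by 2.53 without the dim array and 1.64 on its other probe, and was well above background on 1 of 2 bortezomib arrays. MHC class II genes went down, with 9 of 13 lower, 0 higher and a median of -1.12, and 8 lower with array weights. CIITA, the master activator of these genes, went from 11.21 and 11.39 to 5.19 and 7.33, but only 1 of its 2 probes was called and the bortezomib signal was well above background on 1 of 2 arrays. Without the dim array the log2 fold change of CIITA was -3.97 in place of -5.04. CD74, the invariant chain, went from 11.26 and 11.38 to 9.35 and 10.16. HLA-DMB, which edits the bound peptide, fell by 2.47, again well above background on 1 of 2 bortezomib arrays. Of 11 MHC class I and NKG2D ligand genes, MICA alone was called, with a rise of 1.33 that was lost without bortezomib replicate 2 and under normexp correction, whereas 2 of the 11 were called higher without the dim array.

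Genes of plasma cell identity went down, with 14 of 22 lower, 0 higher and a median of -1.43, and 11 lower with array weights. SDC1, which encodes CD138, the surface marker of plasma cells, went from 13.19 and 13.16 to 9.84 and 10.29, a log2 fold change of -3.11 ± 0.174 (SE; limma, adjusted p = 5.58e-06). TNFRSF17, which encodes BCMA, went from 14.32 and 14.06 to 11.23 and 12.83, and its log2 fold change without the dim array was -1.36. TXNDC5, an ER disulfide isomerase, went from 16.05 and 15.88 to 13.49 and 13.15, and none of these 3 genes had overlapping groups. TNFRSF13B, which encodes TACI, had a log2 fold change of -2.72, the integrin ITGA4 of -2.56, CD38 of -2.14 and MZB1, an immunoglobulin chaperone, of -2.09. IRF4, on which myeloma cells depend, had 14.43 and 14.07 against 12.57 and 13.00, and its log2 fold change of -1.46 had an adjusted p of 0.0524 under array weights. POU2AF1, a B cell coactivator, had 14.44 and 14.46 against 15.09 and 14.90 and was not called. Of 9 genes of B cell identity, 2 rose and 3 fell, and 1 rose and 2 fell with array weights. The transcription factor SPIB went from 10.86 and 11.04 to 2.70 and 6.14, far apart on the bortezomib arrays, with a log2 fold change of -4.81 without the dim array, and the complement receptor CR2 was not well above background with bortezomib and at least 6.20-fold lower, a bound that was higher without the dim array and does not hold with normexp, where its log2 fold change was -2.41, and its other probe was not called. Of the lists of other cell types, T and NK cell genes had 0 of 8 called and monocyte and granulocyte genes 0 of 5, erythroid genes had 1 of 4 higher and 1 lower but 0 with array weights, and of 6 stromal and epithelial genes PECAM1 alone was called, as lower, but 2 of the 6 were lower without the dim array, where the median of the list was -1.57 in place of -0.15.

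Beyond the lists, ANXA1, an annexin that acts in the resolution of inflammation, had a signal of 6.09 and 5.62 in untreated cells and of 14.61 and 14.75 with bortezomib, a log2 fold change of 8.83 ± 0.304 (SE; limma, adjusted p = 4.16e-07). OLAH, a thioesterase of fatty acid synthesis, rose by 6.58 and ETNK2, an ethanolamine kinase, by 5.20, or by 2.09 on its other probe. Genes not well above background in untreated cells and called with bortezomib were at least 57.3-fold higher for the organic anion carrier SLCO2B1, 28.8-fold for HRG, and 12.2-fold for the tissue factor gene F3, and F3 was not called with array weights. These bounds were taken on the quantile-normalized values of both bortezomib arrays. Without the dim array they were 47.8-fold for SLCO2B1, 34.4-fold for HRG and 11.9-fold for F3. They do not hold with normexp, where the log2 fold changes were 3.81 for SLCO2B1, 2.84 for HRG and 2.07 for F3. Among the largest falls of genes measured on all 4 arrays were those of the crystallin CRYBB1 at -4.38, of RASGRP2, an exchange factor for RAP1, at -4.27 and NAV2 at -4.10, and without the dim array RASGRP2 was at -3.66 and NAV2 at -3.23. The weakest of the 3 probes of RASGRP2 was at -2.80 and the other probe of NAV2 at -3.40. RASSF4 was at -3.88, SOWAHD at -3.84, the tetraspanin CD81 at -3.80, RAB36 at -3.80, the chemokine receptor CCR10, found on plasma cells, at -3.79 and IGFBP7 at -3.75. PECAM1, the adhesion molecule CD31, fell by 4.85 (-6.17 to -3.31 over its 3 probes), from 12.20 and 12.56 to 7.05 and 8.01, and was well above background on 1 of 2 bortezomib arrays. LAMP5 was at least 9.30-fold lower, EDN2 8.88-fold and PIGM, of GPI anchor synthesis, 8.42-fold, each without a signal well above background with bortezomib. Without the dim array these bounds were 16.1-fold for LAMP5, 15.4-fold for EDN2 and 14.6-fold for PIGM, and with normexp, where they do not hold, the log2 fold changes were -2.65, -2.86 and -2.91.

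The response was set beside that of LP-1-eGFP at 24 h, which was measured on other arrays, with its own untreated controls. In the control line 6.7% of genes were called higher and 8.43% lower, and 2989 probes were called in the same direction in both lines and 9 in opposite directions. Across 15324 probes well above background on the 8 arrays, the responses of the lines correlated with r = 0.815, as a description, since probes are not independent. The difference between the responses had an adjusted p under 0.05 for 24 probes, 16 with a larger and 8 with a smaller value in LP-1-cIAP2-eGFP. Counted on the probe that stands for each gene, these were 17 genes, or 0.104% of the genes tested. No probe passed with array weights, where limma gave 0 at the adjusted threshold and 1370 at an unadjusted p under 0.05, so none of the following differences held there, and 0 passed without untreated replicate 2 of LP-1-cIAP2-eGFP. RGS2, a regulator of G protein signalling, had a log2 fold change of 4.14 in LP-1-cIAP2-eGFP and 0.98 in LP-1-eGFP, and the difference was 3.16 ± 0.297 (SE; limma, adjusted p = 0.0106). RAB11FIP1, of endosome recycling, had 3.74 against 1.24, and BAG4 had 2.20 against -0.18, and 1.15 in LP-1-cIAP2-eGFP on its other probe. SPP1, which encodes osteopontin, had 0.05 against 2.79 and P2RY6, a nucleotide receptor, had -0.32 against 2.51. BIRC3 had 1.64 against 0.39, with an adjusted p of 0.109 in limma for the difference. Its mean signal went from 11.99 to 13.63 in LP-1-cIAP2-eGFP and from 13.54 to 13.93 in LP-1-eGFP. HSPA6 had 9.37 in both lines. Replication-dependent histones were called lower for 4 of 17 genes here and 14 of 17 in LP-1-eGFP, whereas the difference was called for 0 of the 17.

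**Figure D4:**
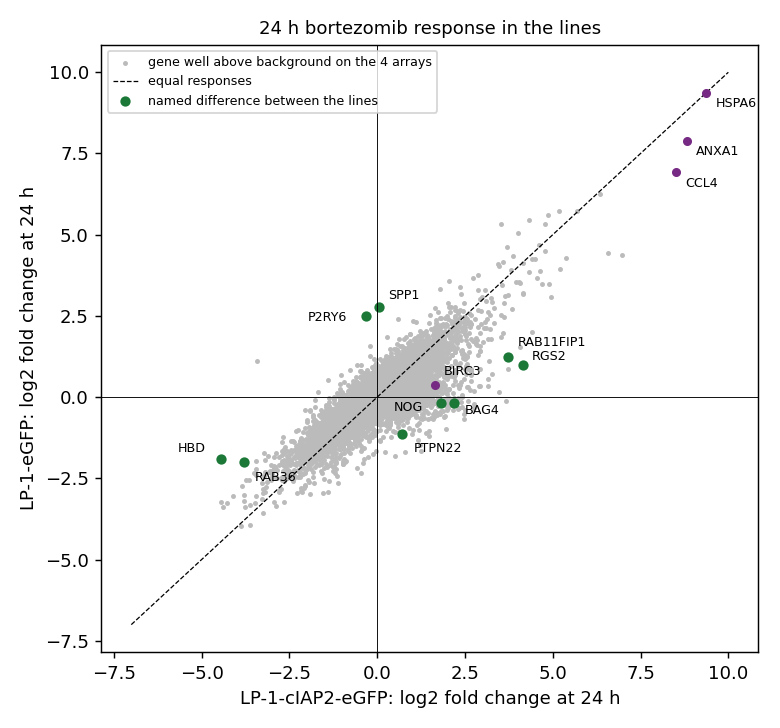
Log2 fold change with bortezomib at 24 h in LP-1-cIAP2-eGFP (x axis) and in LP-1-eGFP (y axis) for genes well above background on the 4 arrays of LP-1-cIAP2-eGFP. Green points are the named differences between the lines at an adjusted p under 0.05, purple points are genes named for comparison and the dashed line marks equal responses; RGS2 lies at 4.14 and 0.98 and SPP1 at 0.05 and 2.79.

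At 6 h the same line had 0.781% of genes called higher and 0.165% lower. Of the 251 probes called at 6 h, 177 were called in the same direction at 24 h and 4 in the opposite one. The response differed between the times, at an adjusted p under 0.05, for 2910 probes, 1096 with a higher and 1814 with a lower value at 24 h. With array weights 791 probes differed. Counted on the probe that stands for each gene, the response differed without weights for 1951 genes, or 11.9%. It differed for 30 probes when the 8 arrays of the line were fitted alone, and for 1099 to 1555 when any single 6 h or untreated 24 h array of the line was left out. At 6 h, 7 of 19 HSP70 family genes, 3 of 16 HSP40 co-chaperones and 2 of 27 genes of HSP90, small heat shock proteins and chaperonins were called higher, and HSPA6 had a log2 fold change of 7.19. Of the ATF4 and CHOP genes 7 of 27 were called higher at 6 h. HMOX1 had 2.24 at 6 h and 1.43 at 24 h. Of the cell division, MHC class II and plasma cell lists, 0 of 37, 0 of 13 and 0 of 22 genes were called lower at 6 h, and the difference between the times was called as a lower value at 24 h for 22, 10 and 12 of them. ANXA1 had a log2 fold change of 0.73 at 6 h and 8.83 at 24 h, with a difference of 8.09 ± 0.430 (SE; limma, adjusted p = 0.000112). IFIT3 had -0.07 and 5.18 and CCL5, a chemokine, 0.37 and 4.77.

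**Figure D5:**
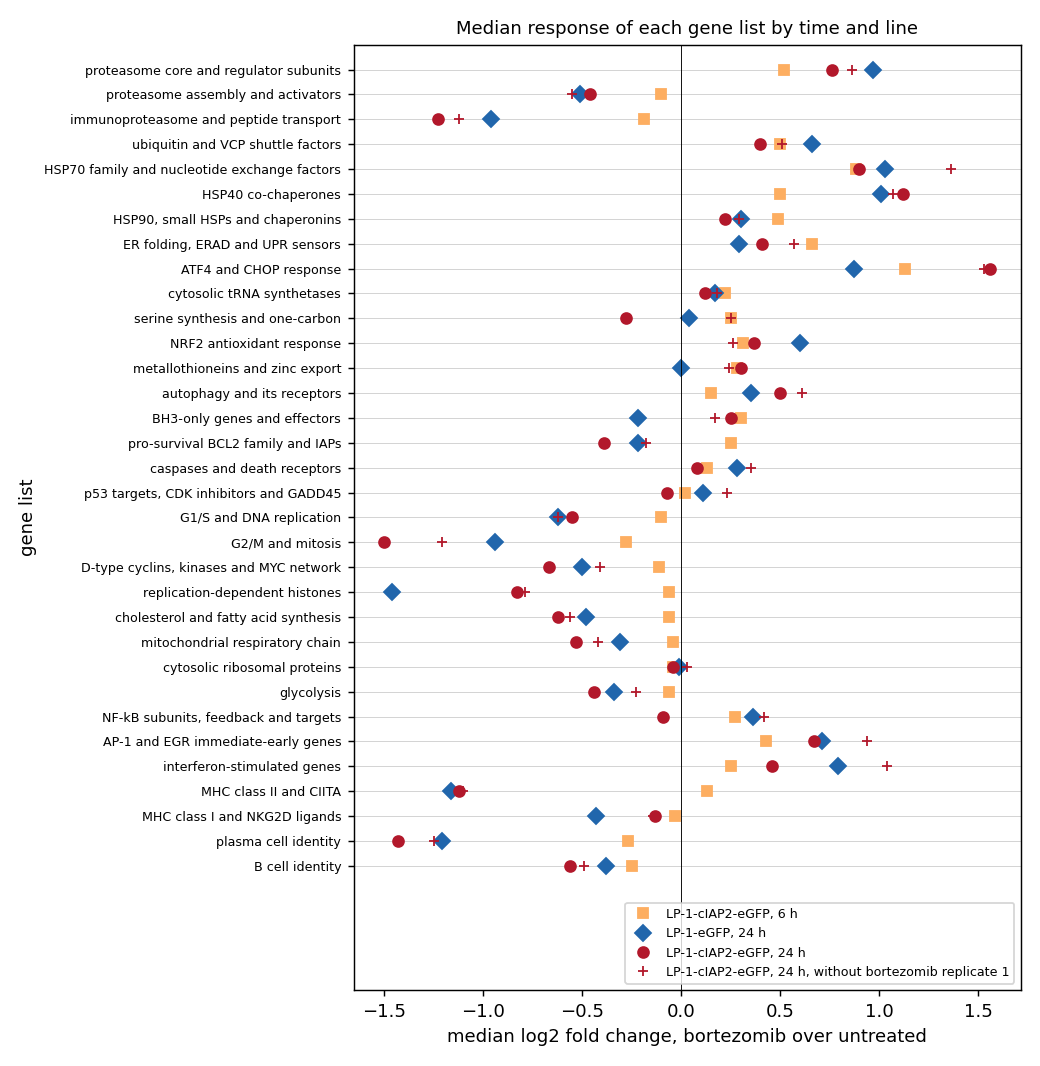
Median log2 fold change with bortezomib (x axis) of each gene list (y axis) in LP-1-cIAP2-eGFP at 6 h (orange squares) and 24 h (red circles, with red crosses for the values without the dim array) and in LP-1-eGFP at 24 h (blue diamonds). The G2/M and mitosis list goes from -0.28 at 6 h to -1.5 at 24 h. The HSP70 list has 0.88 at 6 h and 0.90 at 24 h, or 1.36 at 24 h without the dim array.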

How the data were processed

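RNA was hybridized to Agilent SurePrint G3 Human 8x60K arrays in a single colour. Per the file headers, the deposited intensity values come from Agilent Feature Extraction, which subtracts background, with no scaling across arrays, and its deposited flags mark outlier spots and spots well above background. A second deposited table holds log2 values that the authors quantile normalized in GeneSpring, per the methods, with each probe centred on its median over the arrays, and served as an alternative. Outlier spots were left out, log2 values of repeated spots averaged, and all 16 arrays brought to the same quantiles with limma 3.58.1 in R 4.3.3. A probe was kept if both arrays of any condition showed it well above background. Symbols came through RefSeq accessions for 28174 of 50599 gene probes, and the probe with the highest mean signal stood for a gene. A mean for each of the 8 conditions was fitted with limma (lmFit, contrasts.fit, eBayes; 1.61 prior degrees of freedom), with Benjamini-Hochberg adjustment over all probes tested. The number of arrays limits the precision.

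The fitting code was tested on simulated data for its recovery of known changes, which does not vouch for the p-values of the treated condition, whose spread is larger than the fit takes it to be. Fold bounds were taken against the lowest signal well above background on each array of the dimmer group, or the probe's own signal where higher. The members, the 37 lists and the naming rule were chosen with earlier results of these data known. Named were anchor genes, up to 4 members per list with the largest changes present on both bortezomib arrays, the 10 largest rises and 10 largest falls measured on all 4 arrays, and in each direction the 5 largest bounds and the 5 largest differences between lines and times, the latter among genes well above background on both arrays of the brighter condition of each pair. Further members (HSPA9, HSPH1, HSPA8, DNAJA1, HERPUD1, RELB, CD38, MZB1, POU2AF1 and CD2) were named after their values were seen, and some genes that the rule named are not reported here. Alternatives were other scalings, background corrections, signal filters, blocks, weights and subsets of arrays. Same-numbered deviations of the compared groups had r = -0.016, so the replicate numbers were not taken to pair the arrays.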

Additional observations from a re-analysis of the deposited data

Results flagged for a closer look

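The results here differed between lines or times by a test of the difference itself, in limma at an adjusted p under 0.05, and the genes named were chosen for size among such differences whose signal was well above background on both arrays of the brighter condition, treated or untreated, in each comparison. Larger differences that missed this limit, or came from probes that do not stand for a gene, are not named. Both tests use the noisy treated condition, whose p-values are too small. Between the lines, 24 probes had a different 24 h response. Larger values in LP-1-cIAP2-eGFP than in LP-1-eGFP were found for RGS2 (difference in log2 fold change 3.16), RAB11FIP1 (2.50), BAG4 (2.38), NOG (2.00), a secreted BMP antagonist, and PTPN22 (1.84), a lymphocyte phosphatase. Smaller values were found for P2RY6 (-2.83), SPP1 (-2.74), the globin gene HBD (-2.55) and RAB36 (-1.79). HBD was well above background on 1 of 2 bortezomib arrays of LP-1-cIAP2-eGFP, and its mean signal went from 11.17 to 6.72 there and from 8.27 to 6.37 in LP-1-eGFP. With array weights none of these 9 passed, and their lowest adjusted p was 0.533.

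Between 24 h and 6 h in LP-1-cIAP2-eGFP, 2910 probes had a different response, but 30 when the 8 arrays of the line were fitted alone and 1099 to 1555 when any single 6 h or untreated 24 h array of the line was left out. Larger values at 24 h were found for ANXA1 (8.09), CCL4 (5.33), IFIT3 (5.25) and CCL5 (4.40). Smaller values were found for SPIB (-5.73), SMOC1 (-5.62), SYNPO (-5.23) and CX3CR1 (-5.14). With array weights 7 of these 8 passed, and CCL4 had an adjusted p of 0.0601. The 4 genes with smaller values moved by over 1.5-fold without the dim array of bortezomib replicate 1. Their log2 fold change at 24 h was then -4.81 in place of -6.53 for SPIB, -5.05 in place of -6.15 for SMOC1, -4.08 in place of -5.66 for SYNPO and -4.77 in place of -6.07 for CX3CR1. The other probes of SMOC1 and SYNPO had -3.64 and -3.19. All 4 genes had signals not well above background on at least 1 bortezomib array at 24 h.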

How the results depend on the processing

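Of the 158 named genes called, 127 were measured under every alternative, since the filters on signal removed the probes of some. Of these 127, 100 were called under every alternative other than the 4 arrays alone, and 0 of the 158 changed direction where they were measured. The log2 fold change of 50 of the 158 moved by over 1.5-fold with normexp, 44 of them to a smaller size, of 18 with the probes of a symbol averaged, of 15 without the dim array, each to a smaller size, of 15 without bortezomib replicate 2 and of 13 after scaling to the 75th percentile. Array weights, which lower the weight of the noisy treated condition, called 2818 probes (888 higher, 1930 lower), 2782 on both bortezomib arrays and 1930 genes, with 0 differences between the lines and 791 between the times. The 4 arrays alone gave 0 probes, 0 higher, 0 lower, 0 on both arrays and 0 genes. The 8 arrays of the line gave 4071 probes, 2495 lower, and 30 differences between the times. Probes well above background on all 16 arrays gave 3552 calls, 3552 of them on both bortezomib arrays, 1765 lower, 2339 genes and 80 differences between the lines, and those well above background on the 4 arrays gave 3749, 3749, 1809 and, for the lines, 86. With these filters 50.3% and 51.7% of the calls were higher. Without a fold limit 9631 probes (3736 higher), 9049 on both arrays and 5961 genes passed, and without a filter on signal 1569 probes differed between the times. Differences between the lines numbered 13 after scaling to the 75th percentile, 71 with normexp and 9 with the authors' values. With the replicate block 6557 probes were called and 15 differed between the lines, and with the slide as a block 5225 and 9. The median of the MHC class I and NKG2D ligand list, -0.13, was 0.08 with normexp and 0.04 with the probes of a symbol averaged, and that of the B cell list, -0.56, was 0.31 under either filter on signal. Leaving out an array in turn gave 4555 to 13345 calls, 1513 to 4626 higher, 2811 to 8719 lower, 4305 to 11799 on both arrays, 2801 to 6214 genes, 0 to 9338 differences between the lines and 1099 to 12690 between the times. The highest of these came without bortezomib replicate 2, where the lone dim array is assumed to vary like the other conditions, and the lines had 0 without untreated replicate 2 of LP-1-cIAP2-eGFP. Counts of probes were not run with the probes of a symbol averaged. After scaling to the 75th percentile 14 G1/S and DNA replication genes and 8 histone genes were lower and 5 genes of HSP90, small heat shock proteins and chaperonins higher. Over all genes tested 1469 were called higher and 2071 lower with that scaling, against 1255 and 2281 with quantile normalization. The cause of these changes was not tested. Between the bortezomib replicates the responses correlated with r = 0.009 in the dimmest sixth of probes and 0.824 in the brightest, so signal over background limits what can be said of dim probes.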
